A study of Rattus norvegicus with 9 samples.

Results

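The transcripts of 9 enzymes of serine, glycine and folate metabolism were followed in RNA sequencing of the rat lumbar spinal cord: Phgdh, Psat1, Psph, Shmt1, Shmt2, Gldc, Amt, Aldh1l1 and Mthfd1. They were taken by gene symbol, and each symbol matched 1 of the 34890 loci listed. The 9 were selected on their known role with the fold changes of PLM versus SNI already in view, so for that pair their values are a description and carry no test. Tissue was the ipsilateral L3-L6 segment of wild-type male Sprague Dawley rats, with 3 biological replicates in each of 3 groups. In JA, the sham operation exposed the sciatic nerve and left it uncut, and saline was infused into the stomach. In SNI (spared nerve injury), the common peroneal and tibial branches were tied and cut, the sural branch was spared, and saline was given. PLM rats carried the same injury and received 20.65 mg/mL paeoniflorin with liquiritin, both plant glycosides. The labels list liquiritin as 3.98, 3.99 and 3.100 mg/mL for replicates 1 to 3, whereas the methods describe 1 strength for the group. All groups had surgery, and none received the compounds without nerve injury.

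L-serine is made from a glycolytic intermediate by 3 consecutive enzymes, and serine hydroxymethyltransferase then splits it into glycine and a folate-bound one-carbon unit. The glycine cleavage system breaks glycine down in mitochondria and yields another such unit, while further enzymes interconvert or release the units for nucleotide synthesis and methylation. In the nervous system L-serine is made largely in astrocytes and passed to neurons, which turn part of it into D-serine, a co-agonist of NMDA receptors. Glycine is a fast inhibitory transmitter in the spinal cord. Aldh1l1, the folate enzyme that releases the one-carbon unit as carbon dioxide, is also a standard astrocyte marker.

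Expression was measured as TPM, the share of a transcript in its library after scaling for transcript length and to a fixed total, so levels can be set side by side between genes. The read depth behind the values is unknown. Mitochondrially encoded transcripts took 31.3% to 32.8% of the total in PLM, 23.7% to 26.1% in SNI and 25.3% to 32.8% in JA, and between PLM and SNI the median over all loci tested was -0.21 on the log2 scale. Fold changes of PLM versus SNI are therefore also given after every library was centred on its own median, which brought that median to 0.04. The library of JA replicate 3 stood apart, with 6286 summed TPM of 4 Schwann cell markers (60.5 and 503 in the other JA libraries) and 5583 of 15 astrocyte markers (8000 and 9292). Schwann cell markers were also uneven within SNI (416 to 3569) and PLM (182 to 2631). Hoxc10 (31.0 to 46.9 TPM) and Hoxd10 (16.2 to 26.8 TPM), genes of the lumbar cord, were present in all 9 libraries, and Hoxa10 of the same group was at 0 to 1.41 TPM.

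As a description of the contrast that was in view when the 9 were selected, and not as a test of them, 4 of the 9 were lower in PLM than SNI at an adjusted p under 0.05 with limma, as were 13.6% of all loci tested. They were Phgdh, the first enzyme of serine synthesis, Amt of glycine cleavage, and the folate enzymes Aldh1l1 and Mthfd1. After each library was centred on its median, only Aldh1l1 was (0.685% of loci). The later enzymes of serine synthesis, Psat1 and Psph, overlapped between these 2 groups. Aldh1l1 in PLM was at 43.4% of its SNI mean, Gldc at 51.3%, Amt at 56.8% and Phgdh at 57.1%. Mthfd1 was at 75.1%, Shmt1 at 78.3%, Shmt2 at 78.6%, Psat1 at 83.8% and Psph at 95.3%. In SNI versus JA 0 of the 9 passed that threshold, as did 0 of all 15557 loci tested. The most abundant members were Psat1 and Phgdh, with group means of 71.0 to 174 TPM. Psph, Shmt2, Mthfd1 and Aldh1l1 came next, with 7.27 to 22.6 TPM in single samples. Amt and Shmt1 had group means of 4.41 to 9.72 TPM, and Gldc, the rarest, of 0.887 to 1.73 TPM.

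**Figure D1:**
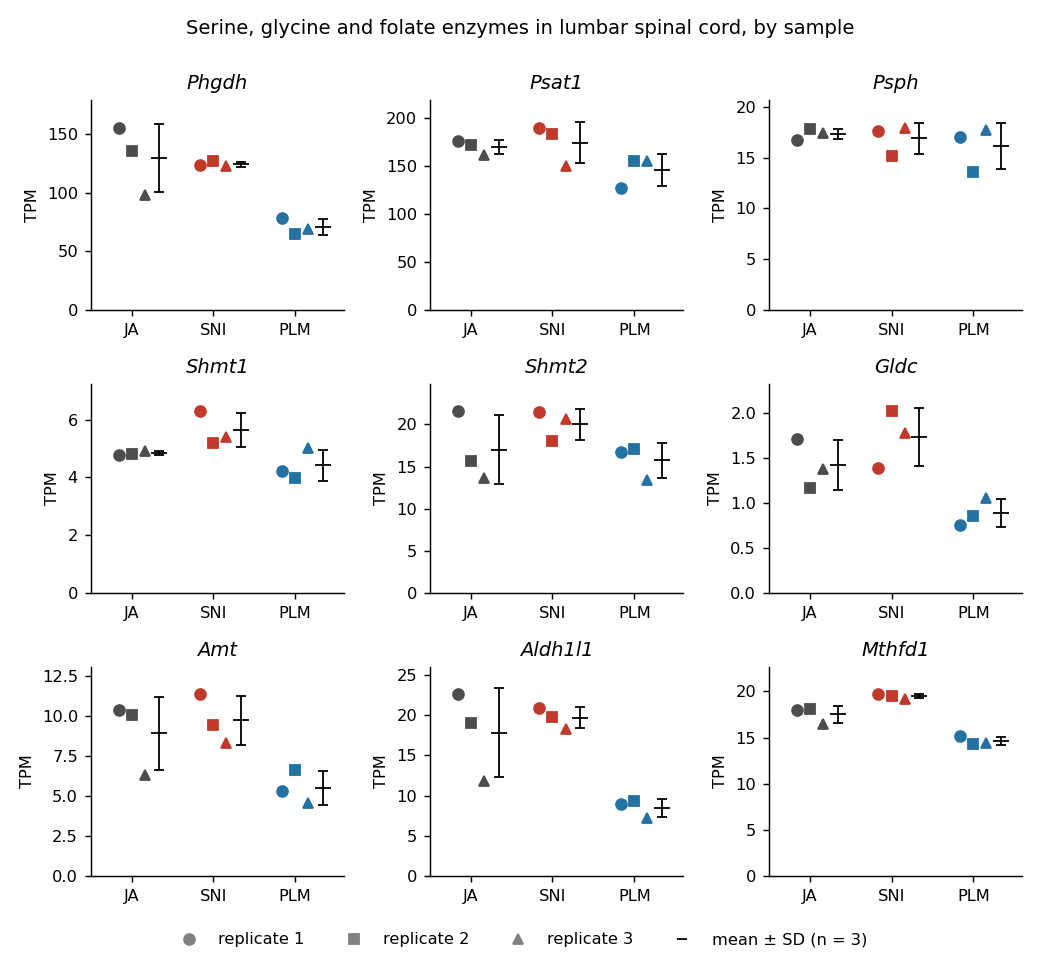
TPM of the 9 enzymes (vertical axes, each from 0) in JA, SNI and PLM, with 1 point per sample and the mean ± SD (n = 3) to its right. PLM points of Phgdh, Gldc, Aldh1l1 and Mthfd1 lie below all 6 other samples, and those of Psat1 and Psph overlap with SNI.

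Phgdh encodes phosphoglycerate dehydrogenase, which commits the glycolytic intermediate to serine synthesis. Its TPM was 156, 135 and 97.8 in JA replicates 1 to 3, 123, 127 and 122 in SNI, and 78.6, 65.05 and 69.2 in PLM. Every PLM sample was below every sample of the other groups, and the SNI samples lay within the range of JA. The log2 fold change of PLM versus SNI was -0.80 (SE 0.08) as deposited and -0.56 (SE 0.10) after centring.

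Psat1 encodes phosphoserine aminotransferase, the next step. Psat1 was measured at 177, 172 and 162 TPM in JA, 190, 183 and 150 TPM in SNI, and 127, 156 and 156 TPM in PLM. SNI replicate 3 fell below PLM replicates 2 and 3, so the injured groups overlapped. For PLM versus SNI the log2 fold change was -0.25 (SE 0.12) as deposited and 0.00 (SE 0.10) after centring, with a 95% interval of -0.25 to 0.24 for the centred value.

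Psph encodes phosphoserine phosphatase, which releases L-serine. In JA it was at 16.8, 17.8 and 17.4 TPM, in SNI at 17.6, 15.2 and 18.0 TPM, and in PLM at 17.1, 13.6 and 17.8 TPM. All 3 groups overlapped, and PLM replicate 2 was the lowest sample. The log2 fold change of PLM versus SNI was -0.07 (SE 0.12) as deposited, while after centring it was 0.18 (SE 0.12), in the other direction.

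Because a ratio of transcripts within a library is unaffected by how that library is scaled, Phgdh was also read against the enzymes downstream of it. The Phgdh to Psat1 ratio was 0.649, 0.692 and 0.818 in SNI, 0.619, 0.418 and 0.445 in PLM, and 0.881, 0.788 and 0.604 in JA. Its PLM values were all below those of SNI, though PLM replicate 1 was above JA replicate 3. Against Psph, Phgdh stood at 9.28, 7.60 and 5.61 in JA, 7.01, 8.35 and 6.82 in SNI, and 4.61, 4.80 and 3.90 in PLM, without overlap between PLM and either other group. JA and SNI overlapped in both ratios. PLM versus SNI was in view when the members were selected, so these ratios are a description and were not tested. Across the 9 samples the centred levels of Phgdh had r = 0.11 with Psat1 and r = -0.18 with Psph, a description over 9 points that share their groups.

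**Figure D2:**
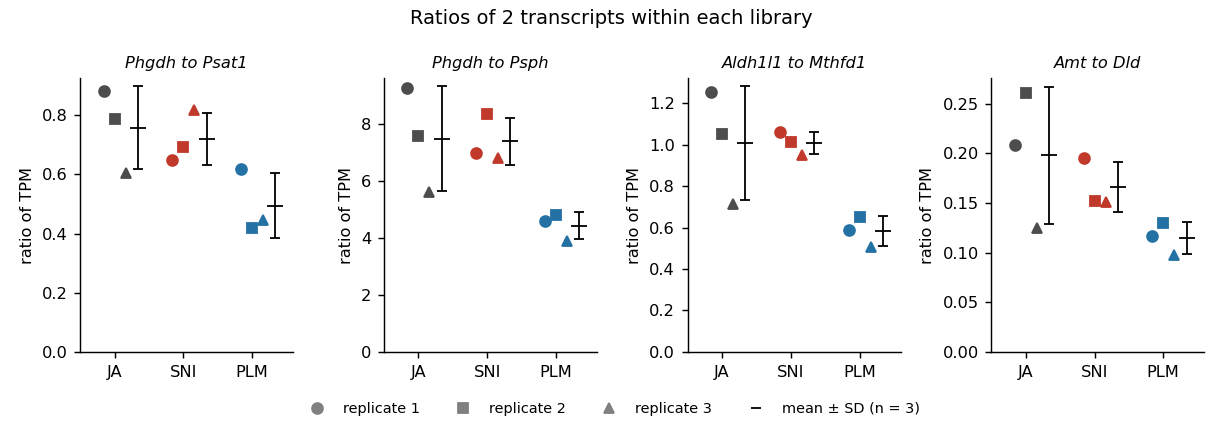
Ratio of TPM between 2 transcripts of the same library (vertical axes, each from 0) in JA, SNI and PLM, with points for samples and the mean ± SD (n = 3). No PLM sample reaches any SNI sample in any of the 4 panels, and JA replicate 3 is the lowest JA sample in each.

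Promoters were taken for Phgdh and Psat1, consecutive steps of serine synthesis, and for Aldh1l1, the member with the largest fold change in PLM versus SNI. They are shown as the 250 bases before the RefSeq start on the GRCr8 assembly. Capitals mark CCAAT boxes, written as CCAAT or, for the opposite strand, ATTGG.
Phgdh promoter, chr2:188624790-188625039, minus strand: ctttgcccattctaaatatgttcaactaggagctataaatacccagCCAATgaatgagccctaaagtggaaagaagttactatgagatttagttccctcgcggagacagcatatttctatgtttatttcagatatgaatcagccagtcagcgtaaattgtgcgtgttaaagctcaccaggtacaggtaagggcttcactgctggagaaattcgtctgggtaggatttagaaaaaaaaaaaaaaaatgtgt
Psat1 promoter, chr1:222645409-222645658, minus strand: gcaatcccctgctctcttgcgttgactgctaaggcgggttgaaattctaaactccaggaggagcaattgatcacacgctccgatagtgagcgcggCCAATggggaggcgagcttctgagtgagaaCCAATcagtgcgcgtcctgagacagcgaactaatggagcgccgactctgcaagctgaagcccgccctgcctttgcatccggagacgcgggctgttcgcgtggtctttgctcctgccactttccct
Aldh1l1 promoter, chr4:124616970-124617219, plus strand: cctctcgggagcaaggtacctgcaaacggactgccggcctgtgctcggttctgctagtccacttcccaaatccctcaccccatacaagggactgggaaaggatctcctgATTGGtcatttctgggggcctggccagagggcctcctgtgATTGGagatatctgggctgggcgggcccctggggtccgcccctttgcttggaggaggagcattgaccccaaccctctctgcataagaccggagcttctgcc
The Phgdh window held 38.8% G and C with 5 CpG, that of Psat1 58.0% with 18 CpG and that of Aldh1l1 60.8% with 7 CpG, beside medians of 51.2% and 5 CpG over 33469 promoters of this length. A CCAAT box on either strand was found in 34.0% of all promoters and, among the 8 members with an entry, in Aldh1l1 (2), Psat1 (2), Gldc (2), Phgdh (1), Shmt1 (1) and Amt (1). The composite element TGATGNAAN, to which ATF4 with C/EBP partners binds, was in 3.38% of all promoters and in 0 of the 8 windows. The STAT element TTCNNNGAA was in 7.67% of all promoters and, of the members, only in Shmt2 (2). Such matches describe letters in these windows and were not tied to binding. Mthfd1 had no entry.

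Shmt1 and Shmt2 encode the cytosolic and mitochondrial serine hydroxymethyltransferases. Shmt1 was at 4.78, 4.81 and 4.91 TPM in JA, at 6.30, 5.19 and 5.41 TPM in SNI, and at 4.23, 3.99 and 5.02 TPM in PLM. All SNI samples were above all other samples, though narrowly above the highest PLM sample. Shmt2 was at 21.6, 15.7 and 13.7 TPM in JA, 21.4, 18.0 and 20.6 TPM in SNI, and 16.7, 17.1 and 13.4 TPM in PLM. PLM was below SNI without overlap for Shmt2, while JA spanned nearly the whole range of both.

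Both isoforms lost most of their difference with centring. The log2 fold change of PLM versus SNI went from -0.29 (SE 0.11) to -0.05 (SE 0.10) for Shmt1, and from -0.33 (SE 0.12) to -0.08 (SE 0.13) for Shmt2. Their proportion was similar in the groups, with a Shmt2 to Shmt1 ratio of 3.56 ± 0.22 in SNI, 3.63 ± 0.86 in PLM and 3.52 ± 0.89 in JA (SD, n = 3). The mitochondrial form was the more abundant in every library, from 2.67 to 4.52 times Shmt1.

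Gldc and Amt encode the decarboxylase and the aminomethyltransferase of the glycine cleavage system. For Gldc, JA held 1.71, 1.17 and 1.38 TPM, SNI 1.39, 2.02 and 1.78 TPM, and PLM 0.75, 0.85 and 1.06 TPM. Amt was higher, at 10.4, 10.1 and 6.30 TPM in JA, 11.4, 9.45 and 8.34 TPM in SNI, and 5.31, 6.66 and 4.58 TPM in PLM. Both were below SNI in every PLM sample, and for Amt JA replicate 3 fell within the PLM range.

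In PLM versus SNI, Amt had a log2 fold change of -0.72 (SE 0.16) as deposited and -0.47 (SE 0.15) after centring. That of Gldc was -0.53 (SE 0.16) and -0.28 (SE 0.16), on a scale where the added 1 TPM shrinks changes of so low a transcript. With 0.1 TPM added instead, Gldc was at -0.89, beside -0.81 for both Amt and Phgdh. The Amt to Gldc ratio was 5.85 ± 2.02 in SNI, 6.41 ± 1.85 in PLM and 6.41 ± 2.04 in JA (SD, n = 3). Relative to Dld, the dihydrolipoamide dehydrogenase that glycine cleavage shares with other mitochondrial complexes, Amt was at 0.195, 0.152 and 0.151 in SNI and at 0.116, 0.130 and 0.0972 in PLM. PLM was below SNI in this ratio too, and JA (0.208, 0.261 and 0.125) overlapped with PLM.

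Aldh1l1 and Mthfd1 handle cytosolic folate-bound units: Aldh1l1 (10-formyltetrahydrofolate dehydrogenase) removes them, and Mthfd1 is the trifunctional enzyme that forms and interconverts them. Aldh1l1 was measured at 22.6, 19.0 and 11.8 TPM in JA, 20.9, 19.7 and 18.3 TPM in SNI, and 8.93, 9.36 and 7.27 TPM in PLM. Mthfd1 was at 18.0, 18.0 and 16.5 TPM in JA, 19.7, 19.5 and 19.2 TPM in SNI, and 15.1, 14.3 and 14.4 TPM in PLM. For both, all PLM samples were below all others, and the Mthfd1 samples of each group lay close together.

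Aldh1l1 had the largest fold change of the 9, with a log2 value of -1.12 (SE 0.11) in PLM versus SNI as deposited and -0.87 (SE 0.12) after centring. Mthfd1 had -0.39 (SE 0.06) and -0.14 (SE 0.07). The Aldh1l1 to Mthfd1 ratio was 1.06, 1.01 and 0.953 in SNI and 0.591, 0.654 and 0.506 in PLM. In JA it was 1.26, 1.05 and 0.714, so PLM was lowest here as well and JA replicate 3 again came nearest to it.

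Counted over the 9, 4 were lower in PLM than SNI at a Benjamini-Hochberg adjusted p under 0.05 with limma (Aldh1l1, Phgdh, Amt and Mthfd1), where 13.6% of all loci tested were lower by that rule, and 0 were higher (0.246% of loci). After centring the count was 1 (Aldh1l1), beside 0.685% of loci. With the thresholds of the study, an unadjusted p under 0.05 with a log2 change of more than 1 either way, it was 1 (Aldh1l1), beside 1.42%. PLM lay below SNI without overlap for 7 members (all but Psat1 and Psph) as deposited, beside 41.9% of loci, and for 4 (Aldh1l1, Phgdh, Amt and Mthfd1) after centring, beside 9.73%. The median log2 fold change of the 9 was -0.39, compared to -0.21 for all loci, and -0.14 compared to 0.04 after centring. With 1 sample left out the 4 became 2 (Phgdh and Aldh1l1), or 3 with Mthfd1 when it was SNI replicate 2, beside 1.71% to 9.46% of loci. Since this contrast was in view when the members were selected, nothing is read from these counts and shares.

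**Figure D3:**
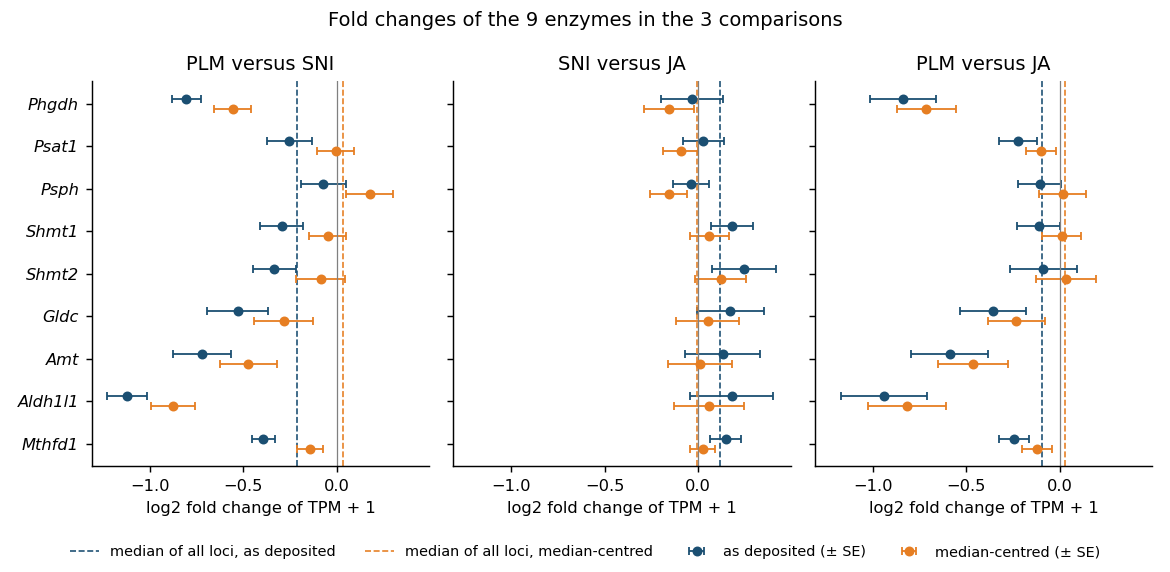
Log2 fold change of TPM + 1 (horizontal axes) for the 9 enzymes in the 3 comparisons, as deposited and after median centring, with SE bars (n = 3 per group) and dashed lines at the median of all loci tested. In PLM versus SNI, every member but Psph lies left of the median of all loci on both scales, and Psph changes side of 0.

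To ask whether nerve injury alone went with a difference, SNI was compared to JA. This shares its SNI samples with the contrast that was in view when the members were selected, so it is not independent of that choice. Here 0 of the 9 members passed an adjusted p under 0.05 with limma, as did 0% of all loci, and 0 members had an unadjusted p under 0.05, beside 7.10% of loci. Adjusted p-values ran from 0.614 to 0.939, and from 0.239 to 0.996 over the alternative settings. Log2 fold changes ranged from -0.04 (Psph) to 0.24 (Shmt2, SE 0.17), and that of Shmt2 was 0.11 to 0.42 with 1 sample left out. The median of the 9 was 0.15 beside 0.12 for all loci, and 0.03 after centring. Mthfd1 (0.15, SE 0.08) and Shmt1 (0.18, SE 0.11) were higher in SNI without overlap, a pattern that 12.1% of loci showed. After centring both overlapped with JA, and 0 members were higher without overlap, beside 623 of 15557 loci. Intervals stayed wide: for Aldh1l1 the 95% interval ran from -0.35 to 0.71, and for Phgdh from -0.43 to 0.36. Without JA replicate 3 the median of the 9 became -0.0062. The Aldh1l1 estimate of 0.18 then became -0.07 and that of Amt went from 0.13 to -0.07.

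Treated rats were also set against sham rats, which shares its PLM samples with that contrast and has the same limit. Of the members, 0 of 9 members passed an adjusted p under 0.05 with limma, beside 0.0130% of loci lower by that rule, and adjusted p-values ran from 0.286 (Phgdh) to 0.868 (Shmt2). At an unadjusted p under 0.05, 4 were lower (Aldh1l1, Phgdh, Amt and Mthfd1), beside 10.5% of loci. PLM was below JA without overlap for 5 (Phgdh, Psat1, Gldc, Aldh1l1 and Mthfd1), beside 15.7%. After centring 3 were (Phgdh, Gldc and Aldh1l1), beside 6.93%. The log2 fold change was -0.94 (SE 0.23) for Aldh1l1, -0.84 (SE 0.18) for Phgdh and -0.59 (SE 0.21) for Amt, and those 3 were -0.82, -0.71 and -0.46 after centring. With JA replicate 3 left out, Aldh1l1 was at -1.20 and Phgdh at -1.03, each with an adjusted p of 0.0626 in limma, the smallest of any member under any setting.

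The enzymes and carriers around the members were taken as 5 lists of 76 genes, none of them a member, of which 75 were in the table (Cth was not found) and 63 were tested. These lists were written with earlier results of these data known, so counts over them are a description and not independent support. In PLM versus SNI, 0 of the 63 were higher at an unadjusted p under 0.05 in limma, beside 198 of 15474 loci. At an adjusted p under 0.05 with limma, 0 were higher, beside 0.246% of loci, and 18 were lower, against 13.6%. By list, 6 of 12 genes of serine handling were lower, as were 4 of 11 of glycine handling, 2 of 18 of the folate one-carbon pathway, 4 of 8 of the methionine cycle and transsulfuration, and 2 of 14 of the ATF4 program. Median log2 fold changes were -0.41, -0.32, -0.24, -0.42 and -0.22 in that order, and -0.17, -0.07, 0.01, -0.17 and 0.02 after centring. After centring 2 genes passed, Dao and Ahcyl1, both lower, beside 0.685% of loci. At an unadjusted p under 0.05, 13 were then lower and 4 higher, beside 6.89% and 10.0% of loci. The 18 became 9 without PLM replicate 1 (1.96% of loci), 8 without PLM replicate 2 (1.71%), 12 without PLM replicate 3 (4.44%), 8 without SNI replicate 1 (1.86%), 14 without SNI replicate 2 (9.46%) and 10 without SNI replicate 3 (3.81%). They became 9 without mitochondrial genes (1.66%), 8 in a fit to all 9 samples (2.99%) and 3 with a replicate block (0.976%). In SNI versus JA 0 of the 63 passed, as did 0% of loci. In PLM versus JA 0 passed too, beside 0.0130% of loci lower and 1 of 15349 loci higher. At an unadjusted p under 0.05, 1 was lower and 5 were higher in SNI than JA, beside 7.10% of loci in either direction. In PLM versus JA 12 were lower, beside 10.5% of loci, and 0 higher, beside 199 of 15349 loci. After centring 6 were lower and 2 higher in PLM versus JA, beside 4.72% and 5.26% of loci.

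In serine handling, Dao, the D-amino acid oxidase that degrades D-serine, fell to PLM values of 6.26, 5.83 and 5.95 TPM from 21.9, 19.5 and 15.9 TPM in SNI, while JA varied widely at 18.3, 12.8 and 6.85 TPM. Its log2 fold change was -1.51 (SE 0.12, limma adjusted p = 0.00477), and -1.26 (adjusted p = 0.0263) after centring. Srr, the serine racemase that makes D-serine, had -0.32 (SE 0.12, limma adjusted p = 0.105) and -0.08 after centring. The Dao to Srr ratio was 2.11, 2.39 and 2.10 in SNI, 0.911, 0.860 and 0.925 in PLM, and 2.46, 1.53 and 1.12 in JA, so PLM lay below every other library. Slc1a4, a neutral amino acid exchanger that carries serine, was at 9.82, 9.16 and 7.80 TPM in SNI and 4.53, 4.09 and 4.59 TPM in PLM (log2 fold change -0.87, SE 0.10, limma adjusted p = 0.00925). After centring it had -0.63 and an adjusted p of 0.0571 in limma, outside the threshold. JA samples of Slc1a4 were at 8.43, 6.44 and 5.12 TPM, all above PLM, with the highest above the lowest SNI sample. Slc7a10, the exchanger Asc-1 for glycine and D-serine, was singled out after its values were seen: 48.0, 40.9 and 34.1 TPM in SNI against 15.2, 13.5 and 7.51 TPM in PLM, a log2 fold change of -1.73 (SE 0.26, limma adjusted p = 0.0166). It was outside the threshold after centring (-1.48, adjusted p = 0.0837) and its adjusted p reached 0.0659 with 1 sample left out. JA samples of Slc7a10 ran from 11.5 to 41.7 TPM.

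In glycine handling, Slc6a9 (the glial glycine transporter GlyT1) was at 214, 206 and 187 TPM in SNI and 135, 138 and 129 TPM in PLM, a log2 fold change of -0.59 (SE 0.07, limma adjusted p = 0.00851). JA samples of Slc6a9 were at 203, 177 and 140 TPM. Slc6a5, the neuronal transporter GlyT2, had -0.34 (SE 0.12, limma adjusted p = 0.0961). The Slc6a9 to Slc6a5 ratio of 4.87 ± 0.78 in SNI and 4.09 ± 0.33 in PLM (SD, n = 3) was lower in every PLM sample than in any SNI sample, narrowly (4.33 against 4.38 at the nearest). The other subunits of glycine cleavage were Gcsh, the lipoyl carrier protein, at -0.51 (SE 0.06, limma adjusted p = 0.00959), and Dld at -0.28 (SE 0.07, adjusted p = 0.0526). Sardh, the sarcosine dehydrogenase that feeds glycine and one-carbon units, fell by 0.74 on the log2 scale (SE 0.09, limma adjusted p = 0.0109). After centring none of these passed the threshold, with -0.34 for Slc6a9, -0.09 for Slc6a5, -0.26 for Gcsh, -0.03 for Dld and -0.50 for Sardh, and limma adjusted p-values from 0.0924 to 0.856.

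Among the folate genes other than the members, Mthfd2, a mitochondrial dehydrogenase and cyclohydrolase, had a log2 fold change of -0.38 (SE 0.08, limma adjusted p = 0.0365) and -0.14 (adjusted p = 0.454) after centring, and Mthfd1l, the mitochondrial formate producer, had -0.23 (SE 0.07, adjusted p = 0.0751) and 0.02 after centring. Aldh1l2, the mitochondrial counterpart of Aldh1l1, was below the level required for testing, with 0 to 0.30 TPM over the 9 samples. In the methionine list, Ahcyl1, a relative of the enzyme that hydrolyses S-adenosylhomocysteine, fell from 148, 139 and 129 TPM in SNI to 83.1, 82.7 and 81.7 TPM in PLM (log2 fold change -0.74, SE 0.06, limma adjusted p = 0.00497), and after centring had -0.49 (adjusted p = 0.0402). JA samples of Ahcyl1 were at 131, 108 and 80.9 TPM, the last below every PLM sample. Cbs, which joins serine to homocysteine, was at 15.1, 17.5 and 16.1 TPM in SNI and 9.01, 6.70 and 7.63 TPM in PLM (log2 fold change -0.98, SE 0.12, limma adjusted p = 0.00906), with -0.73 (adjusted p = 0.0834) after centring. JA samples of Cbs were at 19.2, 12.7 and 8.26 TPM, the last within the PLM range. Atf4, the transcription factor that induces serine synthesis genes under amino acid shortage, had -0.17 (SE 0.07, limma adjusted p = 0.118) as deposited and 0.08 after centring. Slc3a2, the heavy chain shared by several amino acid exchangers, Asc-1 among them, was at -0.55 (SE 0.05, limma adjusted p = 0.00541) and, after centring, at -0.31 (adjusted p = 0.0834). The remaining genes lower in PLM were Sdsl, Ddo, Slc38a1, Gcat, Atic, Mat2a, Ahcyl2 and Sesn2, with log2 fold changes of -0.79 to -0.36, and none of these passed after centring.

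**Figure D4:**
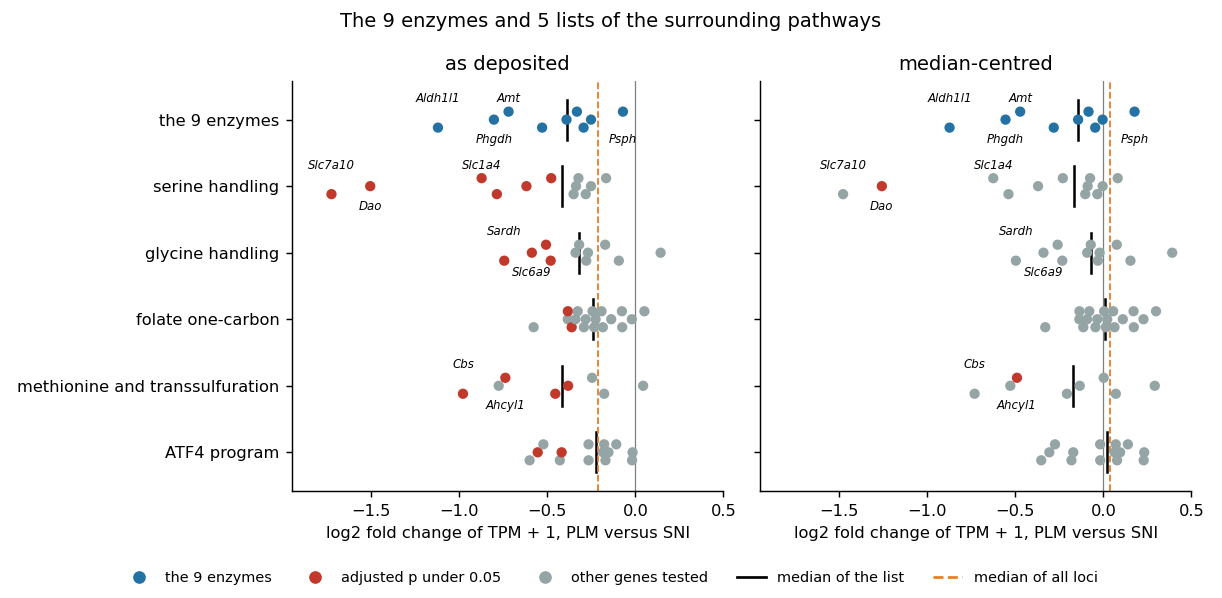
Log2 fold change of TPM + 1 in PLM versus SNI (horizontal axes) for the 9 enzymes and the tested genes of 5 pathway lists, as deposited and after median centring. The 9 enzymes are blue whether or not they passed, red marks the pathway genes with an adjusted p under 0.05 in limma (18 as deposited and 2 after centring), black bars are list medians, and the dashed line is the median of all loci.

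Astrocyte markers differed between PLM and SNI as Aldh1l1, Phgdh and Amt did. The marker lists too were written with earlier results of these data known, so their counts are a description. The 15 markers, with no member among them and none at 0, summed to 8207 to 9514 TPM in SNI, 4435 to 5154 TPM in PLM and 5583 to 9292 TPM in JA. In PLM versus SNI 14 of the 15 were lower at an adjusted p under 0.05 with limma, beside 13.6% of loci, and 9 after centring, beside 0.685%. Their median log2 fold change was -1.28 as deposited and -1.04 after centring. Of 12 neuron markers 0 passed, and their sums were 5104 to 6438 TPM in SNI, 4477 to 5143 TPM in PLM and 2740 to 5193 TPM in JA. All 12 had fold changes below 0, with a median of -0.24 as deposited and 0.01 after centring. As deposited, 0 of 9 oligodendrocyte, 0 of 4 Schwann cell, 0 of 4 fibroblast and 0 of 3 endothelial markers passed, nor did any of 3 oligodendrocyte precursor (median -0.19) or 3 ependymal (-0.14) markers, and 1 of 8 microglia markers was lower. Median log2 fold changes were -0.10 for oligodendrocyte, -0.67 for Schwann cell, -0.61 for fibroblast, 0.24 for endothelial and -0.00069 for microglia markers. After centring they were 0.15, -0.42, -0.36, 0.48 and 0.25 in that order, and 0.06 and 0.11 for the precursor and ependymal lists, where 6 of 9 oligodendrocyte and 5 of 8 microglia markers were higher in PLM without overlap, beside 14.1% of loci, and 1 of 3 endothelial markers passed as higher, beside 0.129%. In bulk tissue, fewer cells of a type and less RNA per cell cannot be told apart, and the part of these marker differences in the members' values was not tested.

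Over the 9 samples, the centred level of Aldh1l1 had r = 0.96 with the mean of the astrocyte markers, and r = 0.92 over the 6 JA and SNI samples. Phgdh and Amt each had r = 0.87 over 9 samples, and 0.54 and 0.76 without PLM. Mthfd1 had r = 0.69, Gldc 0.56 and Shmt2 0.48, and -0.07, 0.02 and 0.75 without PLM. Psat1 had r = 0.06, Psph -0.53 and Shmt1 -0.14, and -0.11, -0.79 and -0.40 without PLM. These points share their libraries and groups, and r is given as a description.

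**Figure D5:**
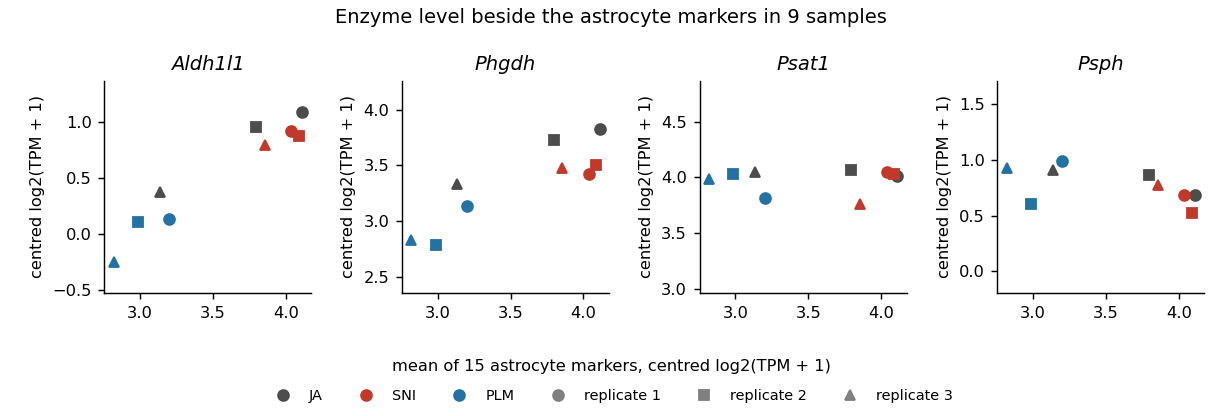
Centred log2(TPM + 1) of 4 members (vertical axes, equal span) against the mean of 15 astrocyte markers on the same scale (horizontal axes), with 1 point per sample. Aldh1l1 and Phgdh rise along the marker axis (r = 0.96 and 0.87, n = 9), with JA replicate 3 beside the PLM samples, and Psat1 stays level (r = 0.06).

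Aldh1l1 and Phgdh were also set against Gfap, the astrocyte filament gene. The Aldh1l1 to Gfap ratio was 0.0357, 0.0320 and 0.0327 in SNI, 0.0345, 0.0377 and 0.0336 in PLM, and 0.0305, 0.0269 and 0.0314 in JA, where the injured groups overlapped. The Phgdh to Gfap ratio was 0.211, 0.205 and 0.218 in SNI and 0.303, 0.262 and 0.320 in PLM, and 0.210, 0.191 and 0.261 in JA. It was higher in every PLM sample than in any other library, by little between PLM replicate 2 (0.262) and JA replicate 3 (0.261).

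The loci whose centred profile over the 9 samples was most like each member were searched among 13120 named loci, and r is again a description. For Aldh1l1 they were Pnp (0.996), Lonrf3 (0.984) and Gfap (0.981), and for Phgdh they were Plxnb3 (0.985), Metrn (0.983) and Gfap (0.971). Amt was most like Apobec2 (0.966), Dyrk1b (0.960) and Lonrf3 (0.947), and Gldc most like Bambi (0.962), Kdsr (0.955) and Aox1 (0.946). Shmt2 was nearest to Tafa5 (0.982), Inpp5j (0.978) and Mlf2 (0.955), Mthfd1 to Mtmr12 (0.938), Snrnp200 (0.921) and Tom1l1 (0.921), and Shmt1 to Umodl1 (0.910), Mrpl53 (0.894) and Mettl16 (0.892). For Psat1 the nearest were Rn5-8s (0.917), Capza1 (0.916) and Sdk2 (0.874), and for Psph they were Dusp12 (0.922), Asb2 (0.916) and Schip1 (0.902). Among the members themselves, Aldh1l1 had r = 0.93 with both Phgdh and Amt, and pairs with Psat1 or Psph ran from -0.54 (Psph with Amt) to 0.50 (Psph with Shmt1).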

How the data were processed

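RNA of the ipsilateral L3-L6 cord was sequenced from TruSeq libraries. According to the methods and the submitters' notes, the authors trimmed adaptors and bases of quality under 20 with fastp 0.19.5, mapped reads with HISAT2 2.0 and estimated expression with StringTie 1.3.3b. The notes name build GRCh38.p13, a human assembly, although the identifiers are those of rat Ensembl genes, so the build is unsettled and no coordinates of the loci are given. The authors deposited 1 table of TPM values rounded to 2 decimals. Read depth cannot be recovered from TPM, so counting error is unknown and count models were not used.

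From these values log2(TPM + 1) was fitted with limma 3.58.1 in R 4.3.3 (variance trend, no covariate) for each pair of groups on its 6 samples, over loci averaging 1 TPM or more. P-values were adjusted by Benjamini-Hochberg over all loci tested, 15474 in PLM versus SNI, 15557 in SNI versus JA and 15349 in PLM versus JA. Standard errors and 95% intervals come from limma. An exact permutation of 3 against 3 samples cannot give a two-sided p below 0.1 and was not used. The fits were also run on made-up data with known fold changes, where the check concerned the estimated fold changes. Genes were drawn independently there, without a shift shared by a whole library, so that check does not vouch for the calls. Other tables were computed with Python 3.11.15, pandas 2.3.3 and NumPy 2.4.6. Groups were taken from the sample titles.

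The 9 members, and the pathway and marker lists written from general knowledge, were chosen with earlier results of these data known. All members are named. Of the pathway genes, the rule named the 8 with the smallest p among those past the threshold without overlap, and Mthfd1l, Mthfd2, Aldh1l2, Gcsh, Dld, Srr, Slc6a9, Slc6a5 and Atf4 whatever their values. Likeness is Pearson's r of centred log2(TPM + 1) over 9 samples, and the 3 highest were named. Alternatives were median centring, removal of 13 mitochondrially encoded genes, quantile normalization, a pseudocount of 0.1, no filter, 1 TPM required in every sample, a fit to all 9 samples, a replicate block and leaving out each sample, and, added after the data were seen, the thresholds of the study. Promoter sequences are from RefSeq (GRCr8) and 8 of 9 members matched by symbol.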

Additional observations from a re-analysis of the deposited data

How the results depend on the processing

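For PLM versus SNI, the 4 members lower became 1 after median centring, 2 without mitochondrial genes, 1 with quantile normalization, 1 with the thresholds of the study (added after the data were seen) and 2 to 3 with 1 sample left out. Over all loci 13.6% were lower, and 0.685%, 1.66%, 0.853%, 1.42% and 1.71% to 9.46% in that order. Their median of -0.39 was -0.14, -0.26 and -0.16 under the first 3. The 18 pathway genes lower became 2, 9, 2 and 2 in that order, 8 in a fit to all 9 samples (2.99% of loci) and 8 to 14 with 1 sample left out. Same-numbered samples showed no clear sign of pairing (residual correlations from -0.05 to 0.13), but differently numbered samples were not compared, so pairing stays unsettled. With a replicate block 2 members and 3 pathway genes were lower, beside 0.976% of loci. Directions turned in small fold changes. In PLM versus SNI, Psph was 0.18 centred, 0.070 without mitochondrial genes, 0.17 quantile normalized and from -0.14 to 0.042 with 1 sample left out. Mthfd1l was 0.0215 centred and 0.0217 quantile normalized, and Atf4 was 0.077 and 0.0029. In SNI versus JA, Psat1 was -0.093, -0.062 and -0.0897 under centring, removal of mitochondrial genes and quantile normalization, and its range with 1 sample left out was -0.037 to 0.13. The same range was -0.075 to 0.37 for Aldh1l1, -0.22 to 0.11 for Phgdh, -0.079 to 0.035 for Psph and -0.074 to 0.24 for Amt. In PLM versus JA, centring and quantile normalization gave 0.017 and 0.00058 for Psph, 0.012 and 0.018 for Shmt1, and 0.035 and 0.016 for Shmt2, with ranges of -0.18 to 0.0055 for Psph and -0.22 to 0.088 for Shmt2. The cause of these shifts was not tested. Of 125 fold changes of members recomputed for PLM versus SNI, 98 kept direction and call, 23 lost the call and 4 turned. Gldc could not be fitted under the filter of 1 TPM in every sample where PLM entered. The read depth behind all values is unknown.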
